A study of Mus musculus with 4 samples.

Results

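The E2f transcription factors were examined across differentiation of C2C12 cells, a mouse skeletal muscle line that grows as single myoblasts and fuses into multinucleated myotubes once serum is reduced. Members were chosen by name, as the rows whose identifier equals E2f1, E2f2, E2f3, E2f4, E2f5, E2f6, E2f7 or E2f8, and all 8 were found in each of the 4 libraries, among 24303 named genes measured in MB and MT and 24437 measured in the siRNA libraries. MB were proliferating myoblasts collected in growth medium 24 h before the switch to differentiation medium (DM -24 h). MT were cells kept for 72 h in DM, which holds horse serum in place of fetal bovine serum. Both gave total RNA depleted of ribosomal RNA. The other libraries were polyA RNA of cells kept for 48 h in DM after transfection with an siRNA against hnRNPL, an RNA-binding protein (si-hnRNPL), or with a control siRNA (si-NC). The groups share an otherwise unmodified line, and no allele or transgene is given for them.

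Each condition is 1 library of 1 clonal line, so the spread between cultures is unknown and no p-value was computed. Levels are in FPKM, fragments mapped per kilobase of transcript and scaled to the size of the library, with the 95% interval that Cufflinks gave. This interval covers the counting and assigning of fragments in the library and not the spread between cultures. The intervals imply 54442423 to 59960176 effective fragments over all entries in the total RNA libraries and 14592480 to 21341051 in the siRNA libraries. Myogenic markers followed the labels: Myog, the myogenic factor of early differentiation, was at 0.695 FPKM in MB and 251 in MT, and Ckm, muscle creatine kinase, was at 0.00961 and 66.3. Mki67, a marker of dividing cells, was at 62.2 FPKM in MB and still at 15.6 in MT. Of 5 markers of undifferentiated reserve cells 2 were lower in MT by 1.5-fold, Id1 (78.9 and 27.7 FPKM) and Id3 (211 and 104), and 3 were neither, with Cd34 at 44.9 and 29.9, Myf5 at 13.8 and 13.6, and Pax7 at 4.85 and 7.42. In bulk RNA of this kind, fewer cells that express a gene and less RNA of it per cell cannot be told apart.

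E2f proteins bind DNA at the promoters of genes for DNA synthesis and cell division. By textbook classes E2f1, E2f2 and E2f3 activate these promoters, E2f4, E2f5 and E2f6 mostly repress them, and E2f7 and E2f8 are atypical repressors that bind DNA without a DP partner. In cycling cells cyclin-dependent kinases phosphorylate the pocket proteins (Rb1, Rbl1 and Rbl2) and free the activators, whereas in a myoblast that leaves the cell cycle the pocket proteins hold E2f factors on their targets and silence them. E2f1, E2f2, E2f7 and E2f8 are themselves known E2f targets.

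The promoters of the family were read first, since several E2f genes are under E2f control themselves. RefSeq promoters (GRCm38.p6, 250 bases before to 50 after a start site) matched 6 of the 8 genes, E2f4 and E2f5 having no entry, with 8 entries in all. The E2f sites searched were TTTCGCGC and TTTGGCGC, with TTTCCCGC and TTTGCCGC added after the data were seen. The cell cycle homology region (CHR), an element of late cell cycle genes, was searched as TTTGAA, and both strands were read. The windows below are the 30 bases around the matches at E2f2 (chr4:136172294-136172323, plus strand), E2f3 (chr13:29986062-29986091, minus strand), E2f7 (chr10:110745230-110745259, plus strand) and E2f8 (chr7:48881599-48881628, minus strand), printed 5′ to 3′ along the gene with the matches in capitals. They are shown because they held a match, and a matched second E2f2 entry is described below without its window. Whether a match goes with the direction of a gene's change was not tested.
E2f2: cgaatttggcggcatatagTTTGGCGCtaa
E2f3: tatggTTTGAAaagccgGCGGGAAAtctga
E2f7: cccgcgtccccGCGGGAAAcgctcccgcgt
E2f8: gagcgggttaatTTCAAAtcgggggctgga

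E2f2 held TTTGGCGC from base 40 after its start site, counted from 1 at the start. E2f3 held TTTGAA from base -23 and, on the other strand, TTTCCCGC from base -11. E2f7 held TTTCCCGC on the other strand from base -198. The capitals at E2f8 are TTTGAA on the other strand, from base -20 of an entry whose start lies 477 bases inside the RefSeq gene. A second E2f2 entry, 8508 bases inside the gene, held TTTGAA from base -31. The entries for E2f1 and E2f6 and the second entry for E2f3 held none of these letters, and the E2f1 entry starts 466 bases inside its gene. Of the 6 E2f genes 1 held TTTCGCGC or TTTGGCGC, against 0.929% of 27025 genes and 12 of 28 G1/S target genes (42.9%). With the 2 spellings added after the data were seen the count was 3 of 6, E2f3 and E2f7 through TTTCCCGC alone, against 2.61% of genes and 13 of 28 G1/S targets (46.4%). TTTGAA was in 3 of the 6 E2f genes, against 20.2% of all genes, 13 of 18 G2/M genes (72.2%) and 4 of 28 G1/S targets. The target lists are described further on. A match describes these letters in these windows and is no evidence of binding.

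In MB all 8 genes were expressed, from 7.20 FPKM (E2f2) to 26.0 FPKM (E2f4), which puts E2f2 above 54.9% and E2f4 above 80.5% of the named genes with a value above 0. The repressors E2f4 and E2f6 led, followed by E2f8 and E2f5. E2f3, E2f7 and E2f1 stood next with intervals that overlapped between neighbours, and E2f2 was the lowest of the family. In MT the order was different: E2f4 still led at 17.5 FPKM, E2f2 came next at 15.0 and E2f6 followed at 13.8. E2f3 and E2f5 did not differ beyond their intervals there, nor did E2f8 and E2f1, and E2f7 was last at 0.928 FPKM, above 34.9% of named genes. In both siRNA libraries E2f4 led, E2f2 came next and E2f7 was last, while E2f6 and E2f1 stood behind E2f2 with intervals that overlapped.

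**Figure D1:**
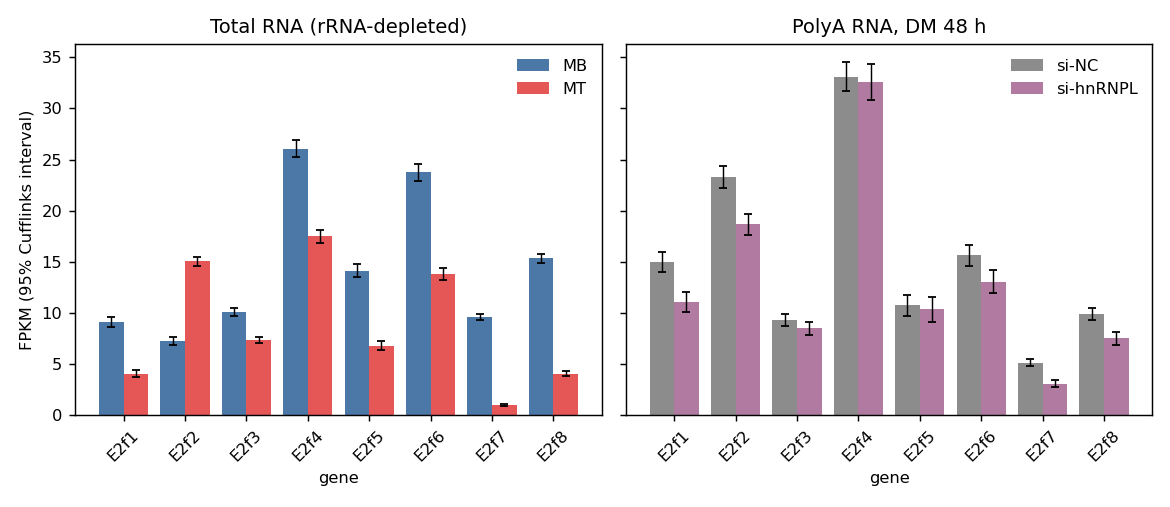
Level of each E2f gene in FPKM (vertical axis) in the total RNA libraries MB and MT (left) and in the polyA libraries si-NC and si-hnRNPL (right). Bars are 1 library each and error bars are the 95% Cufflinks intervals. E2f2 is the gene whose MT bar (15.0) stands above its MB bar (7.20), and E2f7 has the shortest MT bar (0.928).

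The comparison of MT with MB asks how the family changed as the cells stopped dividing and differentiated. A change is the log2 ratio of FPKM + 1, and a gene was counted as higher or lower from 1.5-fold, which is 0.58 on this scale. The study's RNA-seq methods name the same fold change, while its figure legend for the hnRNPL knockdown names a slightly higher one. Neither mentions adding 1 to FPKM. Adding 1 makes the limit stricter than 1.5-fold in plain FPKM, most of all at low levels. By that count 1 E2f gene was higher in MT (E2f2), 5 were lower (E2f1, E2f5, E2f6, E2f7 and E2f8) and 2 were neither (E2f3 and E2f4). Among all 24303 named genes 7.85% were higher and 13.8% lower, and among the 10712 that reached an FPKM of 1 in each library 11.9% were higher and 28.6% lower. The median log2 change of the E2f genes was -0.85, beside -0.23 over those 10712 genes. The FPKM intervals of MB and MT did not overlap for any of the 8 genes. The share of all named genes with intervals apart was not computed, so this count is not read as a trait of the family.

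Among the activators, E2f1, the member best known for driving entry into S phase, was at 9.08 FPKM (8.63 to 9.53) in MB and 4.03 (3.70 to 4.36) in MT. Its level in MT was 44.3% of that in MB, a log2 change of -1.005 (-1.12 to -0.89). E2f2, another S-phase activator, was at 7.20 FPKM (6.83 to 7.56) in MB and 15.0 (14.6 to 15.4) in MT. It was the one E2f gene above its MB level, 2.09-fold higher in FPKM, with a log2 change of 0.97 (0.89 to 1.04) that was above 94.2% of the 9724 genes that reached 1 FPKM in each library and have a transcript model. E2f3, an activator with a long and a short isoform that were not separated here, was at 10.0 FPKM (9.68 to 10.4) in MB and 7.30 (6.98 to 7.63) in MT. Its log2 change of -0.41 (-0.49 to -0.34) did not reach 1.5-fold.

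The opposite directions of E2f1 and E2f2 changed the make-up of the activators more than their sum. E2f2 was at 0.792 times the FPKM of E2f1 in MB and at 3.73 times in MT. The summed FPKM of E2f1, E2f2 and E2f3 was 26.3 (25.6 to 27.0) in MB and 26.3 (25.7 to 27.0) in MT.

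Among the repressors, E2f4, a main E2f factor of resting cells, had the highest level of the family, at 26.0 FPKM (25.2 to 26.9) in MB and 17.5 (16.8 to 18.1) in MT. Its log2 change of -0.55 (-0.62 to -0.48) stopped just short of 1.5-fold. E2f5, its close relative, was at 14.1 FPKM (13.5 to 14.8) in MB and 6.74 (6.29 to 7.18) in MT, which was 47.7% of the MB level and a log2 change of -0.97 (-1.07 to -0.86). E2f6, which represses without pocket proteins as part of a Polycomb complex, was at 23.7 FPKM (22.9 to 24.5) in MB and 13.8 (13.2 to 14.4) in MT. Its log2 change was -0.74 (-0.82 to -0.67). The 3 repressors together went from 63.9 to 38.0 FPKM, and their share of all E2f FPKM was 55.5% in MB and 54.8% in MT.

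The atypical members stood lowest against MB. E2f7 was at 9.60 FPKM (9.31 to 9.90) in MB and 0.928 (0.838 to 1.02) in MT, which is 10.4-fold lower in FPKM. On the log2(FPKM + 1) scale this was -2.46 (-2.54 to -2.38). Of the 9724 genes that reached 1 FPKM in each library and have a transcript model, 1.15% had a lower change. E2f7 is itself outside that set, being under 1 FPKM in MT. Other genes that fell under 1 FPKM in MT are left out of it too, so the rank may look more extreme than among all genes. Adding 0.01 to each FPKM instead of 1 gave a change of -3.36 for E2f7, since the larger pseudocount compresses an FPKM near 1. E2f8, its close partner, was at 15.3 FPKM (14.8 to 15.8) in MB and 4.03 (3.80 to 4.26) in MT, 3.80-fold lower in FPKM and -1.70 (-1.77 to -1.62) in log2 change. Together the pair went from 24.9 to 4.96 FPKM and from 21.6% to 7.16% of all E2f FPKM.

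**Figure D2:**
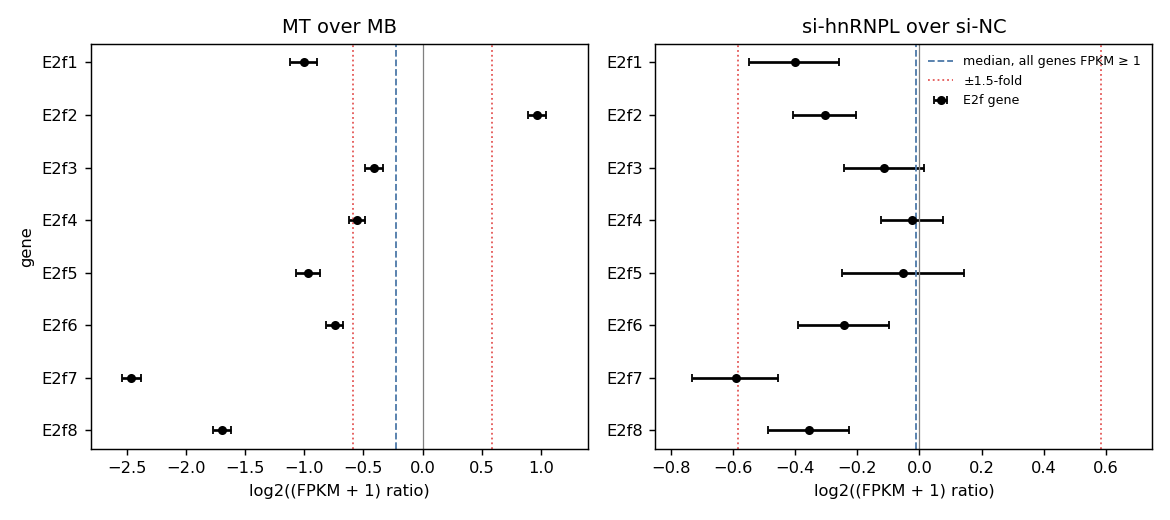
Change of each E2f gene as the log2 ratio of FPKM + 1 (horizontal axis) in MT over MB (left) and si-hnRNPL over si-NC (right), on different ranges. Points are genes with their intervals from both libraries, the dotted lines mark 1.5-fold and the dashed line the median of all genes that reached 1 FPKM in each library. E2f2 lies at 0.97 and E2f7 at -2.46 on the left, and all 8 points lie below 0 on the right, where E2f4 moves to 0.01 with equal upper quartiles and E2f5 to 0.02 after GC content.

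The median change of the 10712 genes that reached 1 FPKM in each library was -0.23. Relative to that median E2f6 was at -0.52 and no longer past 1.5-fold, which left 4 E2f genes lower. After subtracting the median change of the 500 genes nearest in transcript length, a step added after seeing the data, E2f1, E2f7 and E2f8 stayed lower (3 genes) and E2f5 stood at -0.58, just short of 1.5-fold. E2f2 stayed higher and E2f1, E2f7 and E2f8 lower at the 1.5-fold line under every scaling tried.

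**Figure D3:**
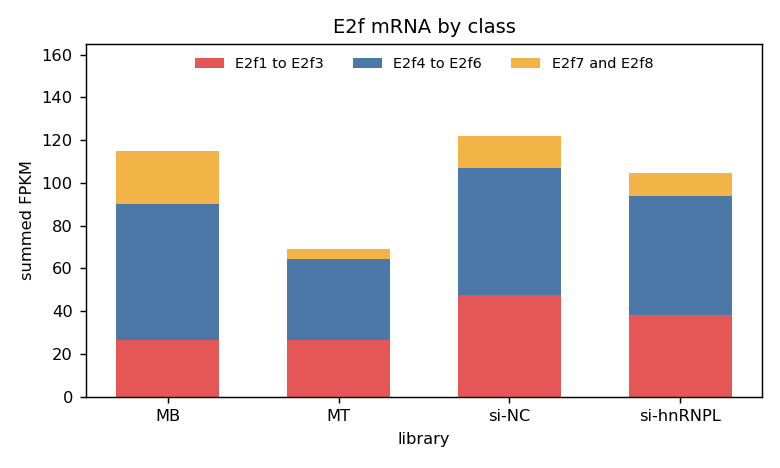
Summed FPKM (vertical axis) of the activators E2f1 to E2f3, the repressors E2f4 to E2f6 and the atypical E2f7 and E2f8 in each of the 4 libraries. The activators held 22.9% of the E2f total in MB and 38.0% in MT, where the total was 69.3 against 115 FPKM in MB.

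Summed over the family, E2f FPKM was 115 in MB and 69.3 in MT. The activators held 22.9% of it in MB, 38.0% in MT, 38.9% in si-NC and 36.5% in si-hnRNPL. The atypical pair held 12.3% in si-NC and 10.1% in si-hnRNPL. The siRNA libraries differ from MB and MT in RNA selection, time in DM and transfection, which cannot be told apart here, so these shares are set side by side and not compared.

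Total RNA also holds unspliced transcripts, and the MB and MT tables list short assembled units inside gene loci. Of those inside E2f loci (mm9), E2f2 (chr4:135728189-135751971, plus strand) held 4, all intronic. The one with the highest level, 693 bases long, was at 1.54 FPKM in MB and 3.59 in MT, and 3 of the 4 were higher in MT by 1.5-fold, with a median log2 change of 0.68. Of all 17989 units inside protein-coding loci 30.6% were higher by that count and 2.97% lower, and 82.7% were above 0, so units above their MB level were common. E2f7 (chr10:110182521-110224440, plus strand) held 8 units, 7 of them intronic. All 8 were below their MB level, 6 by 1.5-fold, with a median of -0.66, and the highest, a 205-base unit that overlaps an exon, went from 4.71 to 0.215 FPKM. Adding 1 compresses the changes of units with low FPKM. The longest intronic unit of E2f7 went from 1.25 to 0.258 FPKM, which is -0.84 on this scale. The remaining unit of E2f2 was at -0.23, with an interval (-1.03 to 0.57) that includes 0, and the share of its units above 0 (75%) was close to that of all units.

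E2f1 (chr2:154385136-154395628, minus strand) held 3 intronic units, all below MB, and the highest went from 2.52 to 0.167 FPKM. E2f8 (chr7:56121799-56136411, minus strand) held 4, of which 3 were lower by 1.5-fold. At E2f3 (chr13:29998444-30077932, minus strand) 23 intronic units had a median of -0.04, with 1 lower, while the gene itself was at -0.41. E2f5 (chr3:14578671-14606309, plus strand) held 3 intronic units, all above 0 with a median of 0.36, opposite in sign to the gene at -0.97. No unit lay inside E2f4 (chr8:107821563-107829270, plus strand) or E2f6 (chr12:16817771-16833558, plus strand). The median over all units inside protein-coding loci was 0.36, so the units of E2f5 sat at the level of all units. Those of E2f1, E2f3, E2f7 and E2f8 lay below that median, with the highest unit of E2f3 at 0.33. Lying below it was thus not limited to loci whose gene passed 1.5-fold. These units may be parts of unspliced E2f RNA or separate transcripts, which was not tested.

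**Figure D4:**
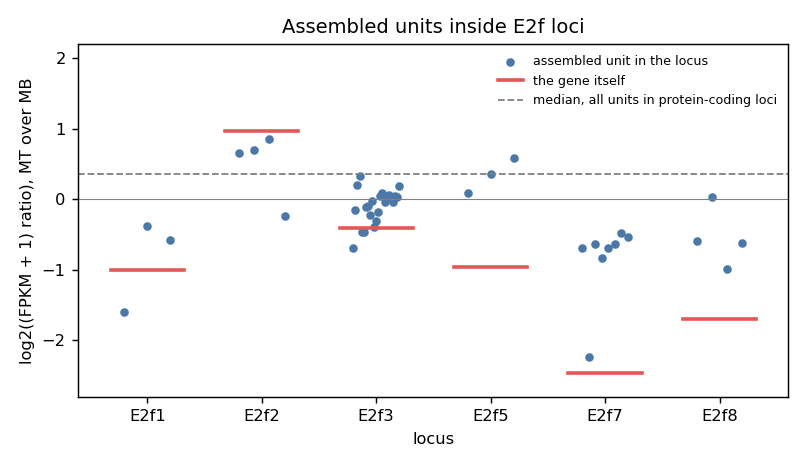
Change in MT over MB as the log2 ratio of FPKM + 1 (vertical axis) for the assembled units inside each E2f locus (points) and for the gene itself (red line); the dashed line is the median of all units in protein-coding loci (0.36). Units of E2f2 lie mostly above 0, all units of E2f7 and E2f1 below 0, and units of E2f5 above the gene. Adding 1 compresses the changes of units with low FPKM.

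The partners and inhibitors of E2f proteins did not move as a block. Of the DP partners, which pair with E2f1 to E2f6 to bind DNA, Tfdp1 went from 104 FPKM in MB to 38.2 in MT (log2 change -1.42). Tfdp2 went the other way, from 8.01 to 12.5 (0.58). This was a hair under 1.5-fold on the FPKM + 1 scale and past it in plain FPKM. Tfdp1 was at 12.99 times the FPKM of Tfdp2 in MB and 3.05 times in MT. Of the pocket proteins, Rb1 was higher, from 8.31 to 21.6 FPKM (1.28), and so was Rbl2 (p130), which pairs with E2f4 and E2f5 in resting cells, from 15.1 to 23.8 (0.62). Rbl1 (p107), the pocket protein of cycling cells and a known E2f target, was lower, from 16.5 to 4.89 (-1.58). The FPKM of Rb1 relative to Rbl1 was thus 0.502 in MB and 4.42 in MT.

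Upstream of the pocket proteins, 6 of 8 cyclins and kinases were lower in MT and 1 was higher. Ccnd1 (cyclin D1) went from 113 to 18.8 FPKM (-2.53) and Ccne1 (cyclin E1), an E2f target that closes the loop on Rb, from 32.5 to 4.67 (-2.56). Ccnd3, the D-type cyclin known to stay in muscle, was higher, from 49.5 to 79.0 (0.66). Of the 7 CDK inhibitors 2 were higher, 2 lower and 3 neither. Cdkn1a (p21) went from 35.3 to 135 FPKM (1.91) and Cdkn1c (p57) from 1.96 to 7.93 (1.595), while Cdkn2c was at -0.85 and Cdkn2d at -1.50. Cdkn2a and Cdkn2b were listed at 0 in every library.

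Of the 3 ubiquitin ligase parts that act on E2f proteins all were lower, with Ccnf (cyclin F) from 33.4 to 4.27 FPKM (-2.71) and Skp2 from 25.1 to 6.18 (-1.86). Fzr1 (Cdh1), the remaining part, was at -1.14. The MuvB core joins E2f4 and Rbl2 in the DREAM repressor complex, and of the 8 genes of the core, the Myb factors and Foxm1, 5 were lower. Of the core itself Lin9 was at -1.39 and Lin54 at -1.23. Mybl2 (B-Myb), which takes the place of the repressors on MuvB in dividing cells, went from 18.9 to 0.995 FPKM (-3.32) and Foxm1 from 31.8 to 3.51 (-2.86). Rbbp4 (-0.18), Lin37 (-0.03) and Lin52 (-0.19) were neither. Of the 14 partners of E2f6 in its Polycomb complex (PRC1.6), 4 were lower and none higher, the same share (28.6%) as among all genes that reached 1 FPKM in each library, and the median was -0.34. L3mbtl2 was at -1.23 and Hdac1 at -1.10, while Mga was at 0.27 and Pcgf6 at -0.37.

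The targets of the family were lower throughout. All 34 G1/S targets, the genes for replication and nucleotide supply that E2f factors drive, were lower in MT, from -3.21 to -1.28, with a median of -2.20. Mcm5, a subunit of the replicative helicase, went from 74.5 to 7.17 FPKM (-3.21) and Mcm10, a replication initiation factor, from 20.5 to 1.65 (-3.02). The smallest differences were in Pola1 (-1.28), a subunit of DNA polymerase alpha, and Tyms (-1.43), thymidylate synthase. All 20 G2/M genes, which DREAM represses and B-Myb with MuvB activates, were lower too, with a median of -2.54, from Aurka (-3.44) and Plk1 (-3.29), both mitotic kinases, to Mki67 (-1.93) and the kinetochore gene Cenpf (-1.55). E2f7, at -2.46, lay within the range of the G1/S targets, E2f8 (-1.70) too, and E2f1 (-1.005) and E2f2 (0.97) outside it.

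**Figure D5:**
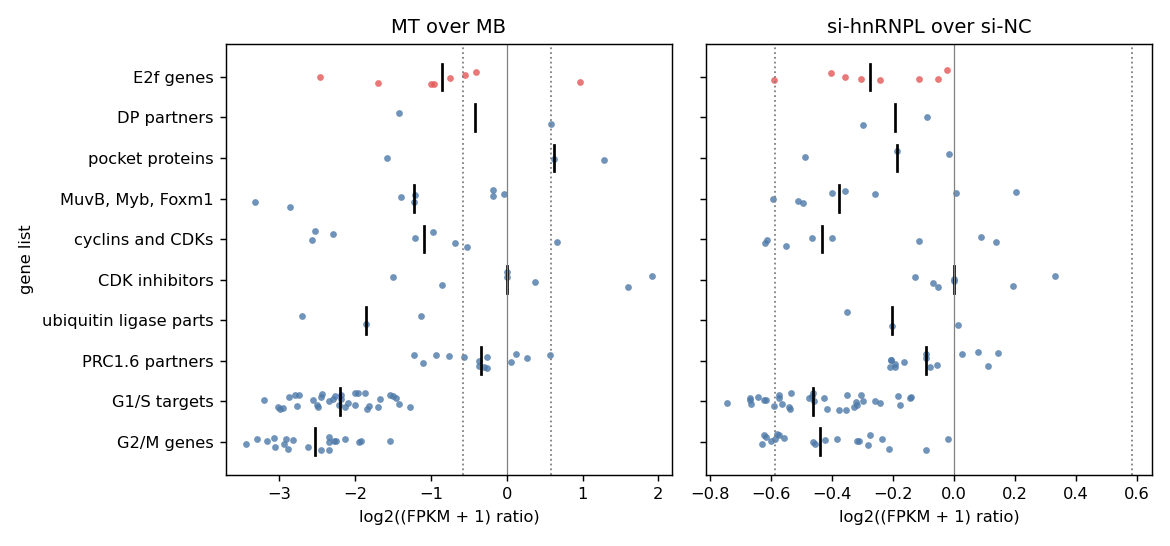
Change of the E2f genes (red) and of the genes of 9 related lists (blue) as the log2 ratio of FPKM + 1 (horizontal axis), in MT over MB (left) and si-hnRNPL over si-NC (right), on different ranges. Each point is a gene, the black bar is the list's median and dotted lines mark 1.5-fold. All G1/S and G2/M genes lie left of the lower line on the left, with medians of -2.20 and -2.54.

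The comparison of si-hnRNPL with si-NC asks what lowering hnRNPL does in differentiating cells. The targeted gene itself, Hnrnpl, was at 95.1 FPKM (92.7 to 97.5) in si-NC, and its 85.9 FPKM (83.1 to 88.7) in si-hnRNPL was 90.4% of the control. This is a small reduction, and the E2f values below belong to a library with that remaining level.

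All 8 E2f genes were below their si-NC level as deposited, although E2f4 was at 0.01 with equal upper quartiles and E2f5 at 0.02 after GC content, and only E2f7 passed 1.5-fold. Across all 24437 named genes 0.606% were higher and 0.405% lower by that count, and the shares were 0.96% and 0.734% of the 11041 that reached 1 FPKM in each library. The median log2 change of the family was -0.27, beside -0.01 over those 11041 genes. The FPKM intervals did not overlap for 5 genes (E2f1, E2f2, E2f6, E2f7 and E2f8) and overlapped for E2f3, E2f4 and E2f5. Here too the share of all named genes with intervals apart was not computed, so the count is not read as a trait of the family.

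E2f7 was at 5.08 FPKM (4.75 to 5.41) in si-NC against 3.04 (2.72 to 3.36) with si-hnRNPL, 59.8% of the control and a log2 change of -0.59 (-0.73 to -0.45). On the FPKM + 1 scale it sat on the 1.5-fold line. The call was lost on centring (-0.58), on equal upper quartiles, and after subtracting the change of genes of like length (-0.48) or GC content (-0.57). It was kept with a pseudocount of 0.1 (-0.72) or 0.01 (-0.74) in place of 1. Making the summed FPKM over loci of at least 300 bases equal kept it too (-0.67). E2f8 was at 9.86 FPKM (9.30 to 10.4) in si-NC against 7.49 (6.87 to 8.11) with si-hnRNPL, a log2 change of -0.36 (-0.49 to -0.23).

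Of the activators, E2f1 was at 14.9 FPKM (13.9 to 15.9) in si-NC against 11.1 (10.1 to 12.0) with si-hnRNPL, a log2 change of -0.40 (-0.55 to -0.26). E2f2 was at 23.3 FPKM (22.2 to 24.3) in si-NC against 18.6 (17.6 to 19.7) with si-hnRNPL, at -0.30 (-0.41 to -0.21). Neither reached 1.5-fold, and the ratio of E2f2 to E2f1 was 1.56 in si-NC and 1.69 in si-hnRNPL, within the bounds of each other. E2f3 was at 9.23 FPKM (8.65 to 9.81) and 8.46 (7.81 to 9.10), with an interval of the log2 change from -0.24 to 0.01.

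Of the repressors, E2f6 was at 15.6 FPKM (14.6 to 16.7) in si-NC against 13.05 (11.9 to 14.2) with si-hnRNPL, a log2 change of -0.24 (-0.39 to -0.10). E2f4 was at 33.1 FPKM (31.7 to 34.6) and 32.6 (30.8 to 34.4), and its change of -0.02 had an interval from -0.12 to 0.08. E2f5 was at 10.7 FPKM (9.71 to 11.7) and 10.3 (9.12 to 11.5), with an interval of the change from -0.25 to 0.14. The differences in E2f3, E2f4 and E2f5 thus lay within the counting intervals, and for every E2f gene the spread between cultures is unknown.

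The E2f targets were below si-NC as well. All 34 G1/S targets were below 0 and 8 passed 1.5-fold, with a median of -0.46. Mcm5 went from 19.5 to 12.1 FPKM (-0.64) and Pola1 from 10.3 to 6.12 (-0.67), whereas Mcm10 (-0.38) and Tyms (-0.32) did not reach 1.5-fold. All 20 G2/M genes were below 0, the nearest at -0.02, and 5 passed, with a median of -0.44. Mki67 was one of them, from 24.3 to 15.5 FPKM (-0.62).

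Of the regulators, Ccnd1 (31.9 and 20.4 FPKM, -0.62), Ccne2 (11.0 and 6.87, -0.61) and Mybl2 (4.06 and 2.36, -0.59) were lower by 1.5-fold. No DP partner, pocket protein, CDK inhibitor, ligase part or E2f6 partner passed in either direction. Rbl1 was at -0.49, Rb1 at -0.19 and Rbl2 at -0.02. Among the 8 myogenic markers 7 were above si-NC and 2 passed 1.5-fold, Ckm (0.71) and Acta1 (0.61), skeletal actin. The myogenic marker below si-NC was Myf5 (38.5 and 29.0 FPKM, -0.40), which is on the reserve cell list too. Of the 5 reserve cell markers Id3, an inhibitor of myogenic factors, was higher (0.90), and 4 were neither. Besides Myf5 these were Id1 (0.25), Cd34 (-0.16) and Pax7 (-0.03, at 1.07 and 1.02 FPKM). How far a different share of dividing or differentiated cells enters the E2f values was not tested.

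E2f2 and E2f7, the genes with the highest and the lowest change in MT over MB, were also set against the 11673 named genes that reached 1 FPKM in any library, by the distance between their levels on the log2(FPKM + 1) scale over the 4 libraries after removing each gene's mean. Nearest to E2f2 were B230219D22Rik (distance 0.0971), Cmklr1 (0.102) and Gm17066 (0.110). Cmklr1 was at 3.61 FPKM in MB, 7.62 in MT, 11.6 in si-NC and 10.1 in si-hnRNPL. Nearest to E2f7 were Ttk (0.0824), Hmmr (0.0923) and Ckap2l (0.0944). Ttk was at 22.1, 3.53, 12.8 and 8.35 FPKM in the same order. The likeness rests on 4 libraries of differing preparation and is a description.

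At 3 of the 8 E2f loci another annotated gene overlaps. E2f5 overlaps the deposited locus of 1810022K09Rik by 21 bases at its end, a gene at 127 FPKM in MB and 96.9 in MT. In the GENCODE annotation of mm9 the models Gm11365 and Gm2788 overlap E2f3 and E2f8, and whether the authors counted by strand is not given in the sources used here, so the values of these 3 E2f genes may hold reads of a neighbour.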

How the data were processed

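C2C12 total RNA (MB and MT) and polyA RNA (si-NC and si-hnRNPL) were sequenced, with 1 library per condition. Per the paper's methods and the labels, the authors trimmed adapters, discarded reads under 36 bp, mapped to mm9 with TopHat 2.0.13 and deposited FPKM values with 95% intervals from Cufflinks 2.1.1. The FPKM values hold no read counts, so no count test was run, and with 1 library per condition no test was run at all.

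Changes were log2 ratios of FPKM + 1, with intervals made from both libraries' bounds in quadrature, and 1.5-fold was the limit for counting a gene. The named genes were all 8 members, any gene of the lists of up to 14 genes, and the 2 largest and 2 smallest changes of the 2 longer lists, plus the 3 nearest genes of 2 members. The members and gene lists were chosen with earlier results of these data known, the lists from general knowledge of the pathway. Effective fragments are the squared ratio of an FPKM to its standard error, summed over entries. Transcript lengths, GC contents and strands came from GENCODE for mm9, and promoters from RefSeq (GRCm38.p6). Alternatives changed the pseudocount, fold, scaling, filters and the handling of symbols with several entries. The scripts used Python 3.11.15, numpy 2.4.6 and pandas 2.3.3 and were tested on simulated data.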

Additional observations from a re-analysis of the deposited data

How the results depend on the processing

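In MT over MB, raising the limit to 2-fold left 0 E2f genes higher and 3 lower, and subtracting the change of the 500 genes nearest in transcript length left 3 lower. In si-hnRNPL over si-NC the count of lower E2f genes was 0 at 2-fold, after centring on the median of all genes, with equal upper quartiles, and after transcript length or GC content, since E2f7 lay on the limit. The count of lower G1/S targets there was 0 at 2-fold and 14 when the summed FPKM over loci of at least 300 bases was made equal, beside 8. It was 12 with a pseudocount of 0.1 or 0.01 in place of 1. With equal upper quartiles, or after transcript length or GC content, it was 6. In MT over MB the changes of the single genes moved beyond their counting intervals under most scalings, because these shift all genes by 0.23 to 0.37 on the log2 scale. E2f2 ranged from 0.97 to 1.30, E2f7 from -3.36 to -2.19 and E2f8 from -1.92 to -1.37 over the alternatives, and no E2f gene past 1.5-fold changed sign. Among those short of it, E2f4 in si-hnRNPL over si-NC went from -0.02 to 0.01 with equal upper quartiles and E2f5 from -0.05 to 0.02 after GC content. The length and GC steps were chosen after seeing the data. No paired analysis was possible because each condition has 1 library. Leaving out a replicate was not possible for the same reason.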
